A study of Mus musculus with 32 samples.

Results

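The endoplasmic reticulum (ER) folds the proteins that a cell secretes or places in its membranes, and 32 genes of this machinery were followed over the day in interscapular brown adipose tissue (iBAT) of the mouse. They were chosen by name as rows of the deposited table of raw read counts, 32 of 50686 Ensembl genes, and all 32 were found and passed the filter on low counts. By role they comprised 4 genes of the stress sensors and XBP1, 9 of BiP, GRP94 and their partners, 2 lectin chaperones, 4 disulfide isomerases, 6 of the translocon and 7 of ER-associated degradation. The study measured RNA from iBAT, the heat-producing fat between the shoulder blades, to learn which transcripts change over the day. All 32 mice were male C57BL/6J of 10 weeks, kept at 22 °C on a 12h:12h light:dark cycle with chow freely available, and non-fasted when killed. Each of the 8 groups was a Zeitgeber time (ZT, hours from lights on), 3 h apart from ZT0 to ZT21, with 4 separate mice and 1 library per mouse. Lights went on at ZT0, when these nocturnal animals begin to rest, and off at ZT12. No group carried a genetic change, and every time point came from its own mice, so a profile over the day joins different animals.

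When unfolded proteins collect in the ER lumen, the unfolded protein response is switched on through the membrane sensors IRE1, PERK and ATF6. IRE1 splices the mRNA of XBP1, PERK slows translation and raises ATF4, and ATF6 is cut to release a transcription factor. XBP1 and ATF6 then raise the genes for chaperones, disulfide isomerases, the translocon and the proteins that draw misfolded clients back to the cytosol for degradation. A fat cell that secretes lipoprotein lipase and adipokines depends on this machinery, and lipoprotein lipase itself is a glycoprotein folded in the ER. Read counts per gene give the amount of an mRNA, not its spliced form, so the XBP1 switch itself was not measured here.

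The DNA element through which ATF6 and XBP1 act, the ER stress response element (ERSE), is shown first because several members carry it upstream of their start. Promoter windows from RefSeq on GRCm38.p6 matched 26 of the 32 members, and the 250 bases before the start were searched on both strands. Atf6, Hyou1, Manf, Sec61a1, Ssr2 and Derl1 had no entry. The ERSE, spelled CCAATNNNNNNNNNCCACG, was found in 9 of 26 members (34.6%) and in 35 of all 27025 genes with a window (0.1295%). The shorter ERSE-II, ATTGG and CCACG with 1 base between them, was found in Herpud1 and in 10 genes in all. Each stretch below is given 5′ to 3′ in the direction of its gene, with the match in capitals and 5 bases on either side; a match read on the other strand begins with CGTGG. Hsp90b1, Calr and Canx lie on the minus strand and the others on the plus strand.
Hspa5 at chr2:34772020-34772048: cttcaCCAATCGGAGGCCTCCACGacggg
Hsp90b1 at chr10:86705633-86705661: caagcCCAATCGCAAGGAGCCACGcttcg
Hsp90b1 at chr10:86705528-86705556: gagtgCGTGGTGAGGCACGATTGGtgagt
Creld2 at chr15:88819515-88819543: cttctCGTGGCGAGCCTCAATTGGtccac
Calr at chr8:84847070-84847098: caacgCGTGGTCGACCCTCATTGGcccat
Canx at chr11:50325795-50325823: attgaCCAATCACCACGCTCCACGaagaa
Pdia6 at chr12:17266486-17266514: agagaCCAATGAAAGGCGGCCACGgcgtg
Dnajc3 at chr14:118937822-118937850: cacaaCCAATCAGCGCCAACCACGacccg
Syvn1 at chr19:6046527-6046555: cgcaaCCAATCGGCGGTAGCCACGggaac
Derl3 at chr10:75893237-75893265: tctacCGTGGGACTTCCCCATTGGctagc
Herpud1, ERSE-II, at chr8:94386372-94386392: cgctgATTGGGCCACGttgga

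In the window of Hspa5 the ERSE lay from -65 to -47 relative to the RefSeq start, and a match to the core of the XBP1 element, TGACGTG, lay from -157 to -151. That core was found in 1.85% of all genes. Hsp90b1, the gene of GRP94, was the only member with the ERSE in 2 places. The E-box CACGTG, the letters to which CLOCK and BMAL1 bind, was found in Calr, Derl3, Dnajb9 and Ssr1, 4 of 26 members (15.4%) against 6.86% of all genes. The heat-shock element, spelled as GAA, TTC and GAA with 2 bases between each, was found in 0 of 26 members and in 0.514% of all genes. A match describes letters in this window only.

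Total counts per library ran from 16300770 to 18254659, and 15505 genes were tested. Markers of brown adipocytes (9 genes, among them Ucp1, Cidea and Adipoq) were above 0 in every library and summed to between 10344 and 16457 CPM (counts scaled to a common library total after TMM). Skeletal muscle markers (8 genes, such as Acta1 and Ckm) summed to between 2.23 and 6420 CPM and reached 1000 CPM in 15 of 32 libraries, with such libraries at every time point. Fibroblast markers (6 genes) summed to between 414 and 597 CPM at ZT0 and to between 382 and 1252 CPM over all libraries. Of the 6, 5 had a 24 h component, against 36.1% of all genes. With the sequencing lane in the model 2 of the 6 had it, against 17.2% of all genes. Plasma and B cell markers (8 genes, 7 tested) summed to at most 30.9 CPM, and their defining gene Mzb1 was at 0 in 8 libraries. Sequencing lane 2 carried ZT0 to ZT6, lane 3 carried ZT9 to ZT15 and lane 4 carried the remaining libraries, so that time and lane cannot be told apart between lanes. In bulk RNA, fewer cells of a type and less RNA per cell cannot be told apart either.

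Per kilobase of exon, Calr (calreticulin, a calcium-binding lectin chaperone) and Hspa5 (BiP, the main HSP70 of the ER) stood highest among the members, at 63.6 ± 7.26 and 59.9 ± 5.58 CPM per kilobase (mean ± SD over 32 mice). Pdia3, Derl1 and Hsp90b1 followed at 43.9, 42.9 and 40.8 CPM per kilobase. The ranges over mice of neighbours in this order overlapped except below Os9 and below Eif2ak3. At the low end stood Ern1 (IRE1) with 2.1, Sdf2l1 with 1.46, Sec61g with 0.791 and Derl3 with 0.192 CPM per kilobase. Derl3, a derlin typical of strongly secretory cells, had 0 to 16 counts per library, and Sdf2l1 had 9 to 54, which leaves only large changes of these genes detectable.

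The members changed by modest amounts over the day. A cosine of 24 h period, fitted to the counts with edgeR, passed in 13 of 32 members (adjusted p under 0.05), against 36.1% of all genes tested. Without the filter on low counts Calr, Derl2, P4hb and Sec61a1 lost this call (adjusted p from 0.0564 to 0.0988), while their amplitudes in edgeR's fit stayed the same. Any difference between the 8 time points passed in 17 of 32 members, against 39.8% of all genes. By JTK, a rank test for oscillation with periods of 21 to 24 h, 11 members had P under 0.05, against 36.4% of all genes, and 7 passed after adjustment, against 27.1%. The median amplitude of the cosine was 0.10 on the log2 scale over the members and 0.14 over all genes. The counts for the cosine and JTK were near those that the shares of all genes give, and the count for the time points was above it, a difference that was not tested. The folds were small beside those of clock genes, such as Dbp with a fitted peak-to-trough ratio of 40.19.

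**Figure D1:**
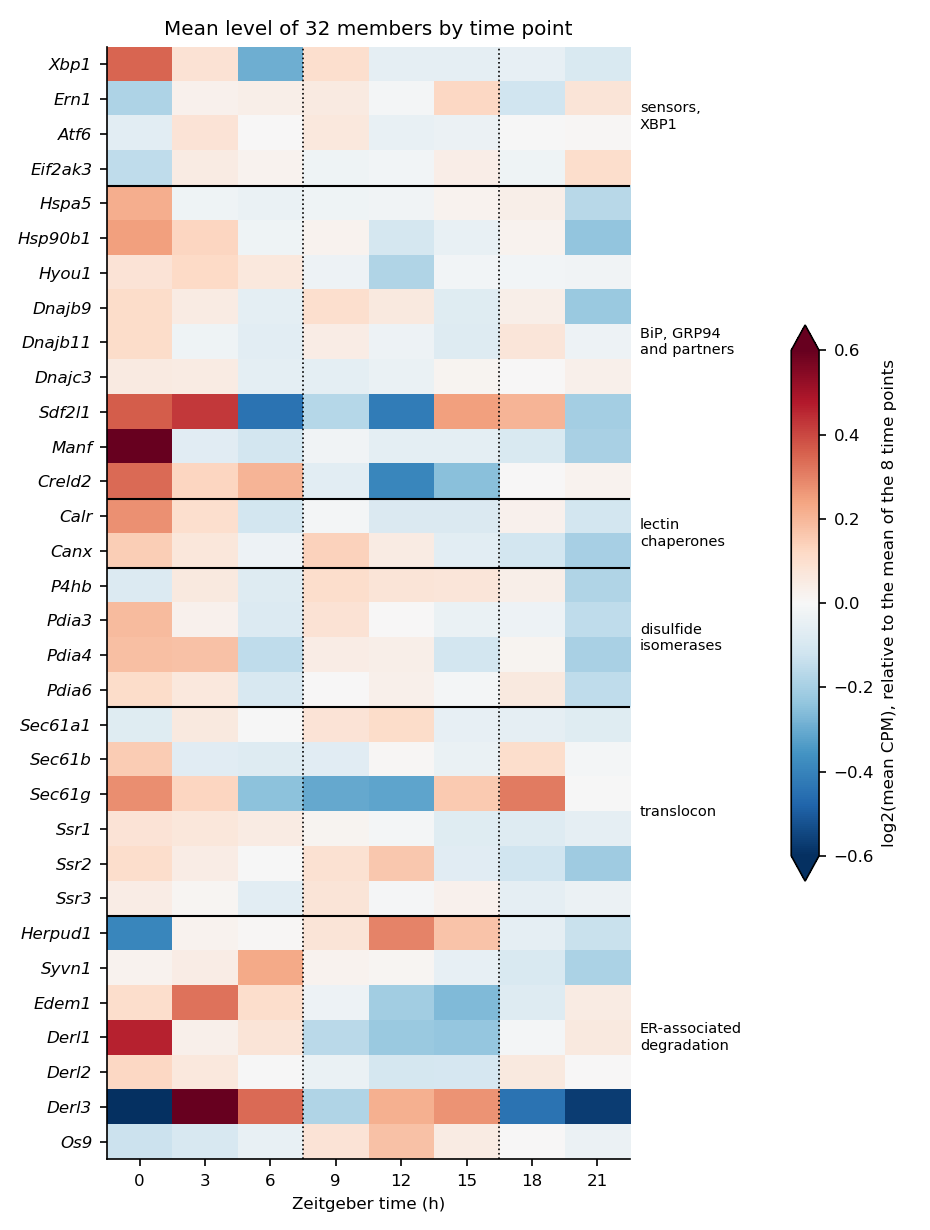
Mean level of each of the 32 members at the 8 time points, as log2 of the mean CPM of 4 mice relative to the mean of that member over the day; rows are grouped by role and dotted lines part the 3 sequencing lanes. The colour scale ends at 0.6 and -0.6, which Manf at ZT0 and the barely counted Derl3 exceed; 17 rows are highest at ZT0 and 13 are lowest at ZT21.

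The mean over 4 mice was highest at ZT0 in 17 of 32 members, where 17.7% of all genes had their highest mean. It was lowest at ZT21 in 13 of 32 members, where 11.1% of all genes had theirs. The 17 members highest at ZT0 included both lectin chaperones, 3 of the 4 disulfide isomerases (P4hb was highest at ZT9) and, among the partners of BiP, Hspa5 itself and Hsp90b1, while Hyou1 was highest at ZT3. ZT21 and ZT0 follow each other in the day but lay on lanes 4 and 2, so this step of the profile cannot be told apart from the lane.

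Among the sensors, no member had a 24 h component. Ern1 (IRE1, the kinase and nuclease that splices Xbp1), Atf6 and Eif2ak3 (PERK) had fitted peak-to-trough ratios of 1.09, 1.05 and 1.02. Xbp1, at chr11:5520659-5525893 (GRCm38, plus strand), is the transcription factor of the IRE1 arm and was the most variable of the 4 between mice. It had 101, 131, 110 and 94.2 CPM in the 4 mice of ZT0, 79.2, 109, 93.8 and 81.2 at ZT3 and 79.8, 79.8, 55.2 and 64.6 at ZT6. On lane 3 it had 131, 86, 85.6 and 63.2 CPM at ZT9, 85.2, 78.3, 59.1 and 107 at ZT12 and 82.3, 70.2, 84.4 and 92.9 at ZT15, and on lane 4 it had 120, 71, 59.1 and 81.2 at ZT18 and 66.5, 77.3, 105 and 71.7 at ZT21. Every time point after ZT0 held mice below all mice of ZT0, and the mice of ZT9 alone spread from 63.2 to 131 CPM. Its mean was 109 ± 16.2 CPM at ZT0 and 69.8 ± 12.1 CPM at ZT6 (SD, n = 4 each), yet neither the cosine (adjusted p = 0.548) nor the difference between time points (adjusted p = 0.246) passed. Ern1 was the only sensor that differed between time points (adjusted p = 0.0453, from 15.1 ± 1.23 CPM at ZT0 to 18.7 ± 1.46 at ZT15), and this call was lost in 15 of 32 fits that left out 1 library, with an adjusted p of 0.104 without replicate 2 of ZT0.

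Hspa5, at chr2:34771970-34777547 (GRCm38, plus strand), encodes BiP, the HSP70 of the ER that binds unfolded chains and holds the sensors inactive. It had 289, 308, 302 and 279 CPM in the mice of ZT0, 244, 234, 260 and 253 at ZT3 and 234, 230, 254 and 265 at ZT6. On lane 3 it had 278, 264, 229 and 222 CPM at ZT9, 258, 246, 236 and 254 at ZT12 and 237, 275, 251 and 259 at ZT15. On lane 4 it had 242, 286, 254 and 256 CPM at ZT18 and 207, 234, 219 and 241 at ZT21. The 4 mice of ZT0 lay above 27 of the 28 other mice, the exception being a mouse of ZT18. Hspa5 differed between time points (adjusted p = 0.00849) but had no 24 h component (adjusted p = 0.683), and its means lay between 246 and 259 CPM from ZT3 to ZT18 and at 225 ± 15.2 CPM, the lowest, at ZT21. It fell from 294 ± 13 CPM at ZT0 to 248 ± 11.4 CPM at ZT3 (SD, n = 4 each), 2 time points on the same lane, a log2 change of -0.25 ± 0.07 (SE, adjusted p = 0.0228). With library size in place of TMM scaling that change was -0.19 with an adjusted p of 0.0793, and without replicate 2 of ZT3 the adjusted p was 0.0697. Without the filter on low counts the change was -0.26 with an adjusted p of 0.0654. Without the 15 libraries that hold muscle transcripts it was -0.24 with an adjusted p of 0.157, and the difference between time points had an adjusted p of 0.371.

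Manf, at chr9:106838312-106891979 (GRCm38, minus strand), encodes a small secreted protein that binds BiP and is raised under ER stress. It had 28.1, 30.6, 31.5 and 25.1 CPM in the mice of ZT0, 18, 20.3, 18.3 and 15.6 at ZT3 and 17.2, 17.2, 18.2 and 17.5 at ZT6. On lane 3 it had 21, 20.4, 14.2 and 18.9 CPM at ZT9, 19.4, 19.3, 14.9 and 19 at ZT12 and 16.7, 18, 17.3 and 20.2 at ZT15. On lane 4 it had 19.1, 17.6, 16.1 and 18.1 CPM at ZT18 and 16.2, 16, 17.4 and 16.6 at ZT21. All 28 mice of the other time points lay below the lowest mouse of ZT0, which no other member showed in this direction. Manf fell by 0.68 on the log2 scale from ZT0 to ZT3 (28.8 ± 2.86 to 18 ± 1.92 CPM, SE of the change 0.10, adjusted p = 0.000157), a 1.60-fold step within lane 2. This call held in all 32 fits that left out 1 library, with adjusted p up to 0.00139, and without the 15 libraries that hold muscle transcripts. Of the exonic bases of Manf, 4.14% lie opposite to exons of Dcaf1, 4.71% opposite to 4930524O07Rik and 0.397% on the same strand as exons of Rbm15b, and whether the counting used the strand was not stated.

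Creld2 encodes an ER protein with disulfide isomerase activity that is raised with Manf under ER stress, and Hyou1 encodes GRP170, which exchanges the nucleotide of BiP. Creld2, at chr15:88819646-88826683 (GRCm38, plus strand), had 8.34, 11.8, 9.41 and 9.23 CPM in the mice of ZT0, 7.08, 8.99, 9.8 and 7.7 at ZT3 and 6.86, 8.63, 10 and 9.8 at ZT6. It had 7.51, 8.97, 6.09 and 6.83 CPM at ZT9, 5.88, 5.47, 5.4 and 6.63 at ZT12, 6.41, 6.44, 7.46 and 5.46 at ZT15, 8.32, 7.56, 6.76 and 8.13 at ZT18 and 8.21, 7.92, 8.18 and 6.84 at ZT21. No mouse from ZT12 to ZT21 reached the lowest mouse of ZT0. Its cosine peaked at ZT1.3 ± 0.7 h with a peak-to-trough ratio of 1.47 (adjusted p = 0.000314). Hyou1, at chr9:44379490-44392369 (GRCm38, plus strand), had 81, 80.7, 88.2 and 77.5 CPM at ZT0, 86.2, 80.8, 81.3 and 88.2 at ZT3, 83.1, 82.8, 79 and 78.4 at ZT6 and 69, 81.3, 80.1 and 72.5 at ZT9. In the dark phase it had 71, 69.7, 64.6 and 67.5 CPM at ZT12, 77.9, 75.7, 71.6 and 80.2 at ZT15, 77, 78.3, 73.3 and 77.6 at ZT18 and 72.9, 81.9, 73.1 and 77.3 at ZT21. All mice of ZT12 lay below all mice of ZT0, ZT3 and ZT6, and the fitted peak was ZT1.6 ± 0.8 h with a ratio of 1.15 (adjusted p = 0.00312).

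Hsp90b1 encodes GRP94, the HSP90 of the ER, which folds integrins and Toll-like receptors. It differed between time points (adjusted p = 0.000166), from 194 ± 6.77 CPM at ZT0 to 139 ± 12.1 CPM at ZT21 (SD, n = 4 each), while its cosine did not pass (adjusted p = 0.0693). Of its exonic bases 10.3% lie opposite to the pseudogene 1810014B01Rik. The HSP40 co-chaperones of BiP, Dnajb9, Dnajb11 and Dnajc3, passed neither test, and nor did Sdf2l1, with adjusted p of at least 0.136 for the cosine and 0.184 for the time points. Dnajb9 varied between 23.6 and 58.4 CPM, and both ends of that range were mice of ZT9.

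**Figure D2:**
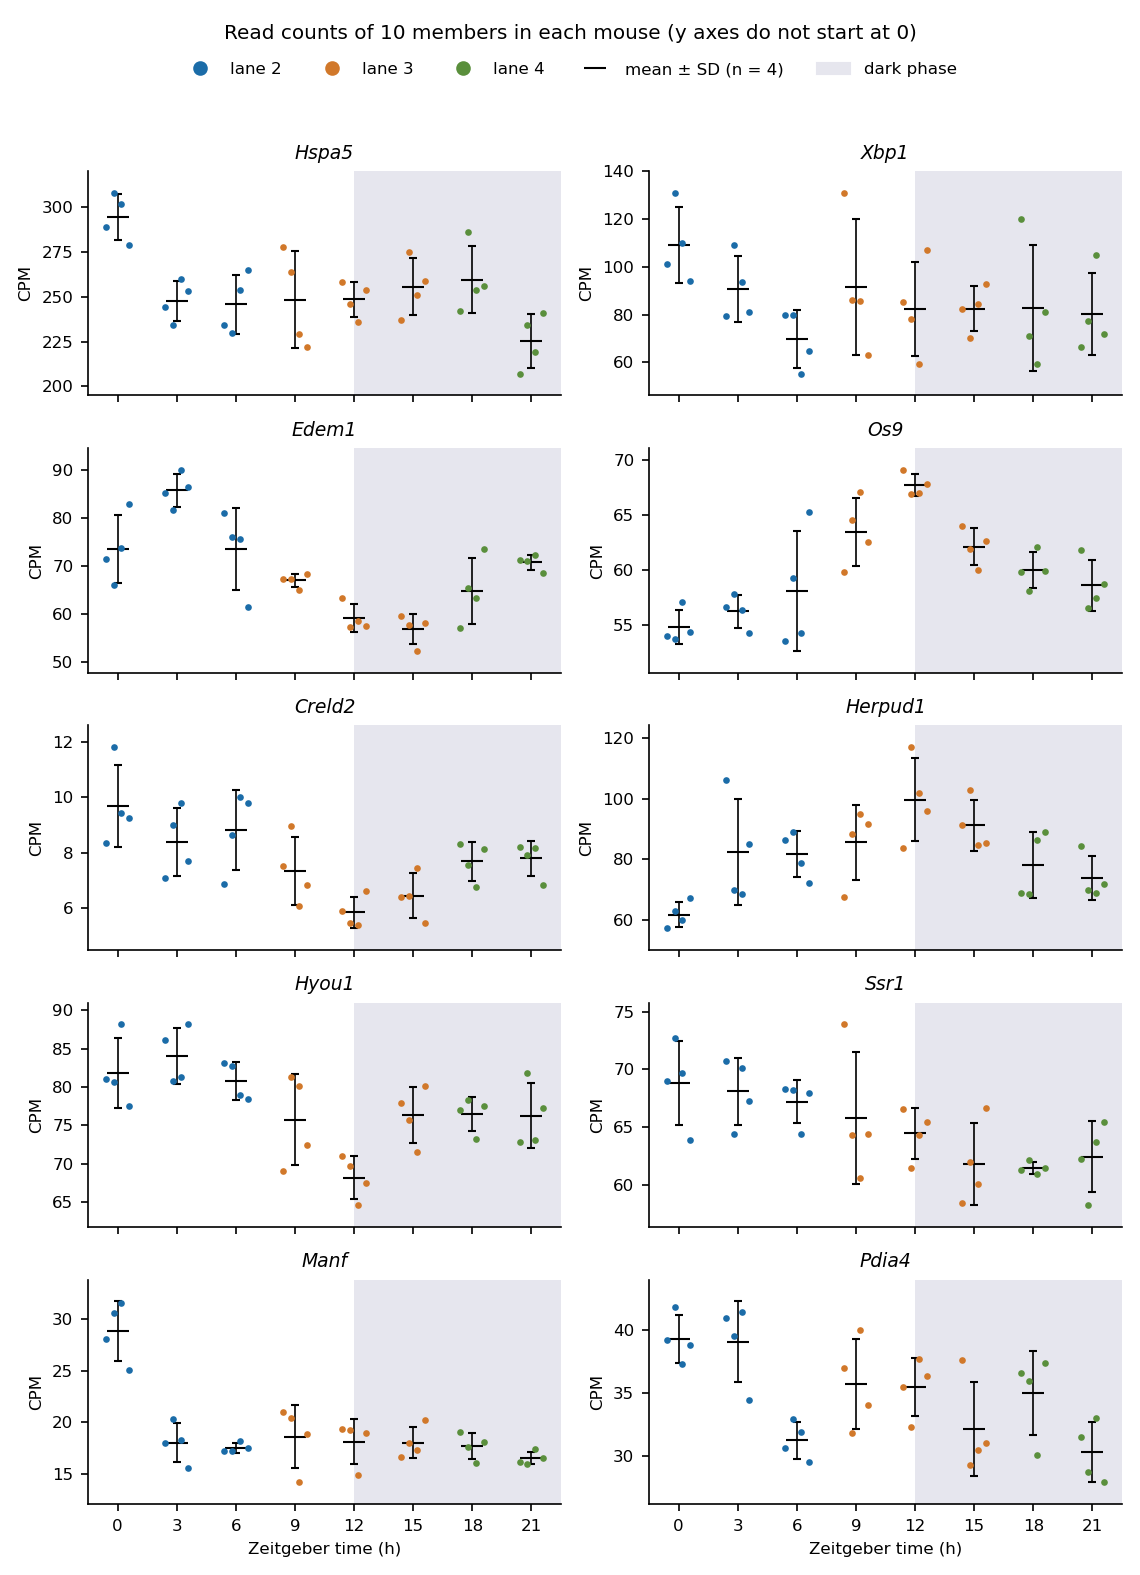
CPM of 10 members in every mouse at the 8 Zeitgeber times (points, coloured by sequencing lane; bars, mean ± SD of 4 mice; grey, dark phase). Manf and Hspa5 stand highest at ZT0, Edem1 is highest at ZT3 and lowest at ZT15, and Os9 and Herpud1 are highest at ZT12.

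The lectin chaperones calreticulin (Calr) and calnexin (Canx) hold newly made glycoproteins until they are folded, and the disulfide isomerases form and reshuffle their disulfide bonds. All 6 of these genes differed between time points, against 39.8% of all genes, and 2 of them, Calr and P4hb, had a 24 h component, against 36.1%. Without the filter on low counts P4hb and Pdia6 lost the call between time points (adjusted p = 0.0559 and 0.0665). Without the 15 libraries that hold muscle transcripts these genes lost that call too. That fit had fewer samples and a single mouse at ZT15, so it cannot tell a smaller change from fewer mice. Calr stood at 221 ± 19.2 CPM at ZT0 against 169 ± 6.39 CPM at ZT21 (SD over 4 mice each). Its fitted peak was at ZT0.6 ± 1.3 h (adjusted p = 0.0388). Canx was lowest at ZT21 with 144 ± 9.72 CPM and had similar means of 183 ± 20.9 CPM at ZT0 and 182 ± 22.1 CPM at ZT9. P4hb, the classical disulfide isomerase, peaked at ZT11.2 ± 1.2 h with a ratio of 1.14 (adjusted p = 0.0359), and Calr and P4hb each lost the call in 9 and 10 of 32 fits that left out 1 library. Pdia3, the isomerase that works with both lectins, was highest at ZT0 with 157 ± 10.6 CPM, and Pdia6 ranged from 84.3 ± 2.88 CPM at ZT21 to 101 ± 5.59 CPM at ZT0.

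Pdia4 (ERp72), at chr6:47796141-47813430 (GRCm38, minus strand), was the isomerase with a called step within a lane. It had 39.2, 41.8, 37.3 and 38.8 CPM in the mice of ZT0, 40.9, 39.5, 41.4 and 34.4 at ZT3 and 30.6, 32.9, 31.9 and 29.5 at ZT6. It had 37, 31.8, 40 and 34 CPM at ZT9, 35.5, 32.3, 37.7 and 36.3 at ZT12, 37.6, 29.3, 30.5 and 31 at ZT15, 36.6, 35.9, 30.1 and 37.4 at ZT18 and 31.5, 28.7, 33 and 27.9 at ZT21. The mice of ZT6 lay below all mice of ZT0 and ZT3. Pdia4 fell by 0.32 on the log2 scale from ZT3 to ZT6 (SE 0.08, adjusted p = 0.0418), the only member called for that step, where 2.08% of all genes were called, 1.21% lower. On the libraries of lane 2 alone the log2 change was -0.32 (adjusted p = 0.0748). With library size in place of TMM it was -0.34 (adjusted p = 0.11). The call was lost in 6 of 32 fits that left out 1 library (adjusted p up to 0.132, without replicate 3 of ZT3).

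The translocon carries nascent chains into the ER: Sec61a1, Sec61b and Sec61g form the channel, and Ssr1, Ssr2 and Ssr3 belong to the translocon-associated protein complex. Ssr1, Sec61a1 and Sec61g had a 24 h component, and Ssr2 and Sec61g differed between time points. Ssr1, at chr13:37966605-37994217 (GRCm38, minus strand), had 69, 72.7, 69.7 and 63.9 CPM in the mice of ZT0, 70.7, 64.4, 70.1 and 67.3 at ZT3, 68.3, 68.2, 64.4 and 68 at ZT6 and 73.9, 64.3, 60.6 and 64.4 at ZT9. In the dark phase it had 66.6, 61.5, 64.3 and 65.5 CPM at ZT12, 58.5, 62, 60.1 and 66.7 at ZT15, 61.3, 62.2, 61 and 61.5 at ZT18 and 62.3, 58.3, 63.7 and 65.5 at ZT21. All mice of ZT18 lay below all mice of ZT0, ZT3 and ZT6. The fitted ratio of 1.11, with a peak at ZT4.2 ± 0.9 h (adjusted p = 0.00892), was the smallest of the 13 members that passed. The cosine of Sec61a1 peaked at ZT8.9 ± 1.1 h (adjusted p = 0.0402), a call lost in 9 of the 32 fits without 1 library. Sec61g peaked at ZT21.1 ± 1.0 h with a ratio of 1.47 (adjusted p = 0.0176) but had only 14 to 48 counts per library, and 12.7% of its 100-base stretches also occur in transcripts of other genes, Gm10177 and Gm11575. Its difference between time points was lost in 26 of 32 fits that left out 1 library. Ssr2 was highest at ZT12 with 63.2 ± 6.27 CPM and lowest at ZT21 with 48.6 ± 1.83 CPM (SD, n = 4 each), and 12.8% of its exonic bases lie opposite to the pseudogene Gm10704.

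ER-associated degradation was the role with the largest share of 24 h components, 6 of 7 members against 36.1% of all genes, and its members peaked on both sides of the day. With the lane in the model 1 of the 7 passed, against 17.2% of all genes. Edem1, a mannosidase-like lectin that takes terminally misfolded glycoproteins out of the folding cycle, had the smallest p of the 24 h cosine among all members. At chr6:108828641-108859356 (GRCm38, plus strand), it had 71.4, 66.1, 73.9 and 83 CPM in the mice of ZT0, 85.2, 81.7, 90.1 and 86.5 at ZT3 and 81.2, 76.2, 75.7 and 61.4 at ZT6. On lane 3 it had 67.4, 67.3, 65.1 and 68.3 CPM at ZT9, 63.4, 57.2, 58.5 and 57.6 at ZT12 and 59.6, 57.7, 52.3 and 58.1 at ZT15. On lane 4 it had 57, 65.4, 63.3 and 73.5 CPM at ZT18 and 71.3, 71.1, 72.3 and 68.6 at ZT21. The lowest mouse of ZT3, at 81.7 CPM, stood above the highest mouse of ZT15, at 59.6 CPM. The fitted peak was ZT2.3 ± 0.4 h with a peak-to-trough ratio of 1.39 (adjusted p = 6.18e-07), and the exact null distribution of JTK gave P = 1.47e-08. With the lane as a factor in the model Edem1 still passed (adjusted p = 0.0115), as the only one of the 13 members to do so.

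Os9 and Herpud1 peaked near the onset of the dark phase. Os9, a lectin that delivers misfolded glycoproteins to the ubiquitin ligase of the ER, lies at chr10:127095650-127121131 (GRCm38, minus strand). It had 54, 53.7, 57.1 and 54.3 CPM in the mice of ZT0, 56.6, 57.8, 56.3 and 54.2 at ZT3, 53.5, 59.3, 54.2 and 65.3 at ZT6 and 59.8, 64.5, 67.1 and 62.5 at ZT9. In the dark phase it had 69.1, 66.9, 67 and 67.8 CPM at ZT12, 64, 61.9, 60 and 62.6 at ZT15, 59.8, 58.1, 62.1 and 59.9 at ZT18 and 61.8, 56.5, 57.4 and 58.7 at ZT21. The mice of ZT12 lay between 66.9 and 69.1 CPM, above all mice of ZT0, and the cosine peaked at ZT12.6 ± 0.5 h with a ratio of 1.19 (adjusted p = 5.11e-05).

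Herpud1, which organises the ligase complex in the ER membrane, lies at chr8:94386438-94395377 (GRCm38, plus strand). It had 57.3, 62.8, 59.8 and 67.2 CPM in the mice of ZT0, 106, 69.9, 68.7 and 85.2 at ZT3 and 86.5, 88.9, 78.7 and 72.3 at ZT6. On lane 3 it had 67.4, 88.2, 94.8 and 91.8 CPM at ZT9, 83.8, 117, 102 and 96 at ZT12 and 91.4, 103, 84.8 and 85.5 at ZT15, and on lane 4 it had 69, 68.4, 86.3 and 88.9 at ZT18 and 84.5, 69.8, 68.9 and 72 at ZT21. All 28 mice of the other time points lay above the highest mouse of ZT0, the reverse of Manf. The cosine peaked at ZT11.6 ± 0.8 h with a ratio of 1.39 (adjusted p = 0.00136). Among the other genes of this role, Derl1 and Derl2, derlins of the export channel, peaked at ZT0.4 ± 1.0 h and ZT0.1 ± 1.0 h (adjusted p = 0.013 and 0.0192), and Syvn1, the ubiquitin ligase HRD1, peaked at ZT6.5 ± 1.1 h (adjusted p = 0.0139). Derl1 varied widely between mice, from 72.9 to 241 CPM over the 32 mice.

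**Figure D3:**
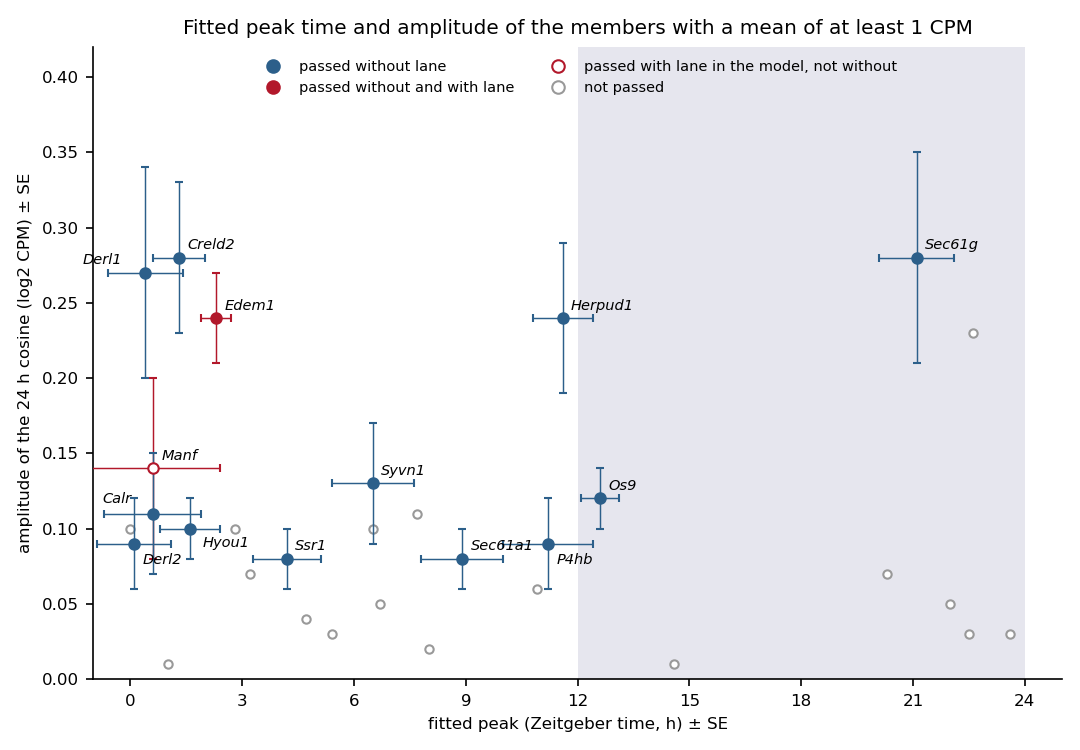
Fitted peak time (x axis, Zeitgeber hours ± SE) and amplitude (y axis, log2 CPM ± SE) of the 24 h cosine for the 31 members with a mean of at least 1 CPM; filled points passed without the lane, red ones also or, if open, only with the lane in the model, and open grey ones in neither. Calr, Creld2, Derl1, Derl2, Edem1 and Hyou1 peak between ZT0.1 and ZT2.3, Herpud1, Os9 and P4hb between ZT11.2 and ZT12.6.

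The contrast of ZT12 against ZT0, the onsets of the dark and the light phase, was called in 12 of 32 members, 10 lower and 2 higher at ZT12. Of all genes 15.9% were called, 8.15% lower and 7.71% higher. The members lower at ZT12 were Hspa5, Hsp90b1, Hyou1, Manf and Creld2 of the BiP group, Calr, Pdia3, and Edem1, Derl1 and Derl2 of ER-associated degradation. Creld2 had the largest of these changes, -0.73 ± 0.13 (log2, SE, adjusted p = 0.000584), followed by Manf with -0.67 ± 0.10 (adjusted p = 5.78e-05) and Derl1 with -0.67 ± 0.22 (adjusted p = 0.0231). GRP94 (Hsp90b1) changed by -0.35 ± 0.06 (adjusted p = 0.000788) and Hspa5 by -0.24 ± 0.07 (adjusted p = 0.0207). The calls of Derl2, Pdia3, Derl1 and Hspa5 were lost in 6, 5, 4 and 3 of 32 fits that left out 1 library, with adjusted p up to 0.128 (without replicate 2 of ZT0), 0.118 (replicate 3 of ZT12), 0.0912 (replicate 3 of ZT0) and 0.0706 (replicate 3 of ZT12). Herpud1 rose by 0.69 ± 0.13 (adjusted p = 0.000532) and Os9 by 0.31 ± 0.04 (adjusted p = 0.000236). The mice of both time points did not overlap in 10 members, all of them called, against 16.3% of all genes; Pdia3 and Derl1 were called with overlap. The median log2 change was -0.12 over the members and 0.00 over all genes. With library size in place of TMM scaling Hspa5, Pdia3 and Derl2 lost the call. Their log2 changes were then -0.20, -0.14 and -0.18 (adjusted p = 0.0563, 0.17 and 0.108). Ern1 and Sec61a1 gained a call under that scaling, each with a log2 change of 0.23 (adjusted p = 0.0386 and 0.0305). Without the 15 libraries that hold muscle transcripts Manf alone passed, against 2.35% of all genes, while most folds stayed about as large. The log2 change was then -0.38 for Hsp90b1, -0.37 for Calr, -0.69 for Creld2 and 0.35 for Os9, with adjusted p from 0.0565 to 0.148, and that of Edem1 was smaller, at -0.18 (adjusted p = 0.449). Markers of other cell types differed here too: the summed endothelial markers (5 genes) were 809 to 1021 CPM at ZT0 and 699 to 769 CPM at ZT12, and the fibroblast markers 414 to 597 and 706 to 970 CPM. Their part in the members' changes was not tested. ZT12 lay on lane 3 and ZT0 on lane 2, so lane and time cannot be told apart in this contrast.

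**Figure D4:**
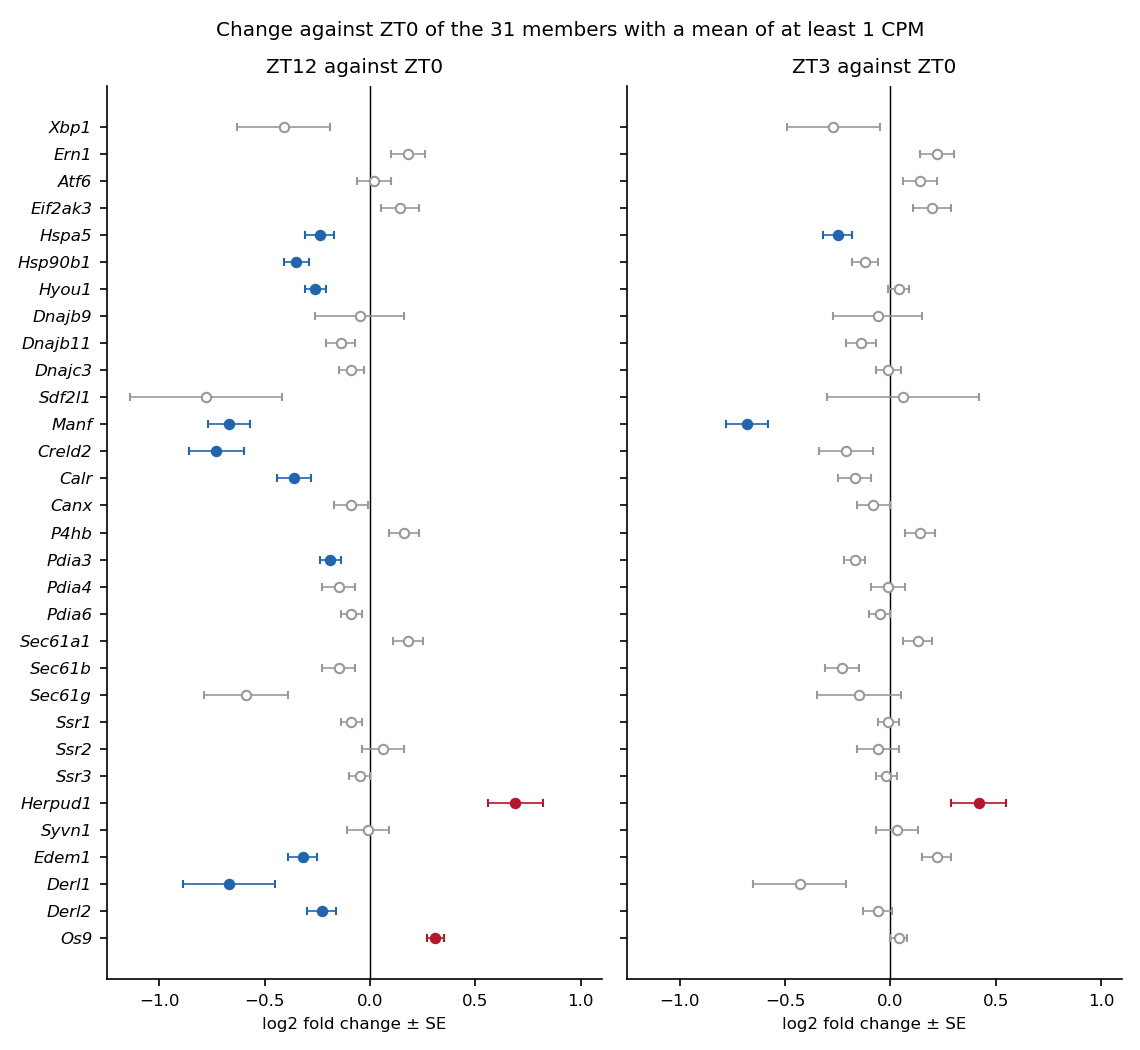
Log2 fold change (± SE) of the 31 members with a mean of at least 1 CPM at ZT12 (left, another lane than ZT0) and at ZT3 (right, same lane), both against ZT0; filled points passed the adjusted threshold, blue lower and red higher. Manf and Hspa5 lie to the left and Herpud1 to the right in both panels, which share the ZT0 mice.

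From ZT0 to ZT3, both on lane 2, 3 of 32 members were called, against 13.8% of all genes, 6.6% lower and 7.16% higher: Hspa5 and Manf fell and Herpud1 rose. This contrast shares its ZT0 mice with that of ZT12. Over the same step the summed fibroblast markers were 414 to 597 CPM at ZT0 and 730 to 1128 CPM at ZT3. The macrophage markers (6 genes) were 51.5 to 78.6 and 77.9 to 133 CPM, and the brown adipocyte markers 12639 to 14652 and 11905 to 12909 CPM. The part of these cell types was not tested. Herpud1 went from 61.8 ± 4.24 to 82.4 ± 17.5 CPM (log2 change 0.42 ± 0.13, SE, adjusted p = 0.0314), with no overlap between the mice, but without replicate 1 of ZT3 its adjusted p was 0.143 and on the lane 2 libraries alone it was 0.0567. The mice did not overlap in 5 members, against 16% of all genes. The count rested on single libraries: it was 1 without replicate 2 or 3 of ZT0 and 8 without replicate 4 of ZT0. Without replicates 3 of ZT9, 1 of ZT15 or 3 of ZT15 it was 5. With library size in place of TMM Hspa5 lost the call, and Edem1 and Ern1 gained it. Their log2 changes were then -0.19, 0.28 and 0.29 (adjusted p = 0.0793, 0.0214 and 0.0129). From ZT9 to ZT12 and from ZT12 to ZT15, on lane 3, 0 of 32 members were called by edgeR and 0 by DESeq2, with 3 and 5 members at an unadjusted p under 0.05. Of all genes 0% were called from ZT9 to ZT12 by edgeR (1047 genes at an unadjusted p under 0.05, and 24 by DESeq2) and 3.04% from ZT12 to ZT15. From ZT18 to ZT21, on lane 4, Hsp90b1 alone fell (-0.26 ± 0.06, SE, adjusted p = 0.045, with 2.06% of all genes called, 0.826% lower). This call was lost in 18 of 32 fits that left out 1 library, with an adjusted p of 0.145 without replicate 4 of ZT18.

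The other comparisons of time points 12 h apart called fewer members, and in each the lanes differed. At ZT15 against ZT3, 2 of 32 members were called, against 14.2% of all genes (7.28% lower): Edem1 fell by 0.59 (SE 0.07, adjusted p = 6.21e-06) and Pdia4 by 0.28 (SE 0.08, adjusted p = 0.0233). Without replicate 2 of ZT15 the adjusted p of Pdia4 was 0.0854, whereas that of Edem1 stayed at or below 7.39e-05 in all fits without 1 library. At ZT18 against ZT6 Syvn1 alone fell (-0.32 ± 0.10, SE, adjusted p = 0.0326, against 16.9% of all genes, 8.68% lower), and without replicate 1 of ZT18 its adjusted p was 0.126. At ZT21 against ZT9, 5 of 32 members fell and 0 rose, against 9.62% of all genes called, 5.11% lower and 4.51% higher: Canx by 0.34, Ssr2 by 0.31, P4hb by 0.29, Hsp90b1 by 0.26 and Pdia3 by 0.24 on the log2 scale. Their adjusted p ran from 0.0094 to 0.0375, and the count was 3 without replicate 2 or replicate 4 of ZT21. The mice of both time points did not overlap in 8 of 32 members, these 5 among them, against 14.3% of all genes. Of the 8, 7 were lower and 1 was higher at ZT21. The summed fibroblast markers were 672 to 1228 CPM at ZT9 and 382 to 677 CPM at ZT21, and the macrophage markers had means of 124 and 69.2 CPM, and their part was not tested. Without the 15 libraries that hold muscle transcripts these calls were lost in edgeR's fit, which had fewer samples. Of ZT15 a single mouse was then left, assumed to vary like the mice of the other groups. The log2 changes stayed about as large or were larger. They were -0.59 for Edem1, -0.33 for Pdia4 and -0.47 for Syvn1. At ZT21 against ZT9 they were -0.36 for Canx, -0.30 for Ssr2, -0.34 for P4hb, -0.30 for Hsp90b1 and -0.27 for Pdia3.

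A wave of 12 h, which has been described for ER stress genes in other tissues, was not detected in the members by edgeR. The 12 h component added to the 24 h cosine was called by edgeR in 0 of 32 members and in 0.464% of all genes. At an unadjusted p under 0.05 it was seen in 7 members, against 17.6% of all genes. Manf had the smallest p (0.00384, adjusted 0.115), and DESeq2 called it alone, with an adjusted p of 0.048. With 8 time points 3 h apart in 24 h, the 4 samples per 12 h cycle allow only coarse shapes.

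Because each lane held neighbouring time points, the cosine was refitted with the lane as an additive factor. Then 2 of 32 members passed, Edem1 (adjusted p = 0.0115) and Manf (adjusted p = 0.0212), against 17.2% of all genes. Manf had not passed without the lane (adjusted p = 0.0942). For Os9, Herpud1, Creld2 and Hyou1 the adjusted p with the lane was 0.248, 0.169, 0.6 and 0.714. The amplitude in edgeR's fit went from 0.12 to 0.09 for Os9 and from 0.23 to 0.26 for Herpud1, and from 0.28 to 0.16 for Creld2 and 0.10 to 0.06 for Hyou1. Without the 15 libraries that hold muscle transcripts, which leaves 17 libraries and a lone mouse at ZT15 that is assumed to vary like the others, the cosine passed in 4 members, Edem1, Herpud1, Os9 and Syvn1, against 18.5% of all genes. Among members that no longer passed, the amplitude went from 0.28 to 0.27 for Creld2, 0.26 to 0.25 for Derl1 and 0.10 to 0.09 for Hyou1. For Derl2 the amplitude rose from 0.09 to 0.12, and for Sec61a1 from 0.08 to 0.11. With the muscle marker level as a covariate on all libraries the cosine passed in 12 members, all among the 13. The part of muscle tissue in these results was not tested further.

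Whether members move together from mouse to mouse was tested against Hspa5 on the deviations from the time-point means, which leaves out time and lane. With mice permuted within time points (100000 resamples, two-sided) and adjustment over 15504 genes, 4 of 31 members passed, all with positive r, against 4.52% of all genes. Ssr2 had r = 0.785 (Spearman's rho = 0.775, permutation p = 3e-05 and 5e-05, adjusted p = 0.0122 and 0.0144), and r = 0.772 without the 2 mice whose Hspa5 was farthest from the median, replicate 1 of ZT9 and replicate 2 of ZT18. By lane its r was 0.797, 0.923 and 0.464. Calr had r = 0.585 (rho = 0.641, permutation p = 0.00145 and 0.00088, adjusted p = 0.0422 and 0.0376), and 0.547 without those 2 mice. Dnajb11 and Derl1 had r = 0.656 and 0.626 with permutation p of 0.00221 and 0.00213, on the border of the adjusted threshold. For GRP94, the usual companion of BiP, no relation was detected (Hsp90b1, r = -0.0662, rho = -0.0733, permutation p = 0.751 and 0.73, adjusted p = 0.861 and 0.85), and Herpud1 had r = -0.433 (rho = -0.395, permutation p = 0.03 and 0.0484, adjusted p = 0.141 and 0.188). The median r was 0.2252 over the members and -0.0203 over all genes. Of the cell type markers Mrc1 of macrophages alone passed, with r = -0.654 (rho = -0.666, permutation p = 0.00216, adjusted p = 0.0498). The other macrophage markers had r from -0.589 to -0.128, and the fibroblast markers from -0.58 to -0.175. Endothelial markers ran from -0.622 for Pecam1 to 0.216 for Kdr. The 8 muscle markers had r from -0.425 to -0.349 without passing, and the 9 brown adipocyte markers had positive r up to 0.603 without passing. The part of tissue composition in the relation was not tested. With library size in place of TMM 0 members and 0 of all 15504 genes passed. Without 1 library the count ran from 1 to 4 members, with 1 or 2 members in 21 of 32 such runs, and from 49 to 1181 of all genes.

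Other genes of the pathway, 108 from general knowledge of which 107 were tested, gave 44 with a 24 h component and 49 that differed between time points, against 36.1% and 39.8% of all genes. With the lane in the model 17 of the 107 had a 24 h component, against 17.2% of all genes. Of the PERK arm, 3 of 9 had a 24 h component and 7 of 9 differed between time points. Trib3, a pseudokinase target of ATF4, peaked at ZT4.6 with a ratio of 2.26 (adjusted p = 0.000101), and ATF4 itself peaked at ZT19.0 with a ratio of 1.44 (Atf4, adjusted p = 0.00692). Nupr1, a stress-induced co-regulator, peaked at ZT20.9 with a ratio of 1.38 (adjusted p = 0.0261), and all 3 passed with the lane in the model. Of the ATF6 and CREB3 family and their proteases 1 of 6 tested had a 24 h component, Creb3l1, a membrane-bound factor cut like ATF6, with a peak at ZT1.6 and a ratio of 2.05 (adjusted p = 9.78e-07, and 0.253 with the lane in the model). Of the other folding enzymes 7 of 22 passed, led by Txndc5 at ZT12.3 (ratio 1.34, adjusted p = 2.1e-06, and 0.129 with the lane), and of the other translocon and glycosylation genes 6 of 25, led by Ddost at ZT9.1 (ratio 1.15, adjusted p = 0.00319, and 0.127 with the lane). The other genes of ER-associated degradation had 17 of 26, led by Erlin2, which peaked at ZT7.0 with a ratio of 1.59 (adjusted p = 2.18e-07) and passed with the lane in the model (adjusted p = 3.09e-05). Of the genes of export from the ER 10 of 19 passed, led by the KDEL receptor gene Kdelr3 at ZT5.9 (ratio 2.23, adjusted p = 1.53e-06, and 0.00461 with the lane). With the lane in the model 3 of the 22 folding enzymes and 1 of the 25 translocon and glycosylation genes passed. So did 7 of the 26 degradation genes and 2 of the 19 export genes, against 17.2% of all genes.

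A list of 10 heat-shock genes that answer to unfolded proteins outside the ER had larger folds over the day than the members. Hspd1 and Hspe1 on this list encode the chaperonin of the mitochondria, and the other 8 genes encode chaperones and helpers of the cytosol. Hspd1 and Hspe1 had amplitudes of 0.13 and 0.19 on the log2 scale, below the median of the list. Of the 10 genes 9 had a 24 h component and all 10 differed between time points, against 36.1% and 39.8% of all genes, with a median amplitude of 0.73 on the log2 scale against 0.10 for the members. Their summed level was 1586 to 2502 CPM at ZT0, 850 to 1024 CPM at ZT9 and 1378 to 1964 CPM at ZT18. From ZT0 to ZT3, 9 of the 10 fell with a median log2 change of -1.21, against -0.04 for the members and 6.6% of all genes called lower. From ZT12 to ZT15, 8 of the 10 rose, where 0 members and 3.04% of all genes were called. Hspa8, the constitutive HSP70, had 727 CPM at ZT0, 178 CPM at ZT6 and 803 CPM at ZT18 (means of 4 mice), and Hsph1 had 174, 20.3 and 96.7 CPM at these times. At ZT18 Manf and Hspa5 stood at 17.7 ± 1.26 and 259 ± 18.5 CPM (SD, n = 4 each), against 28.8 ± 2.86 and 294 ± 13 CPM at ZT0.

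**Figure D5:**
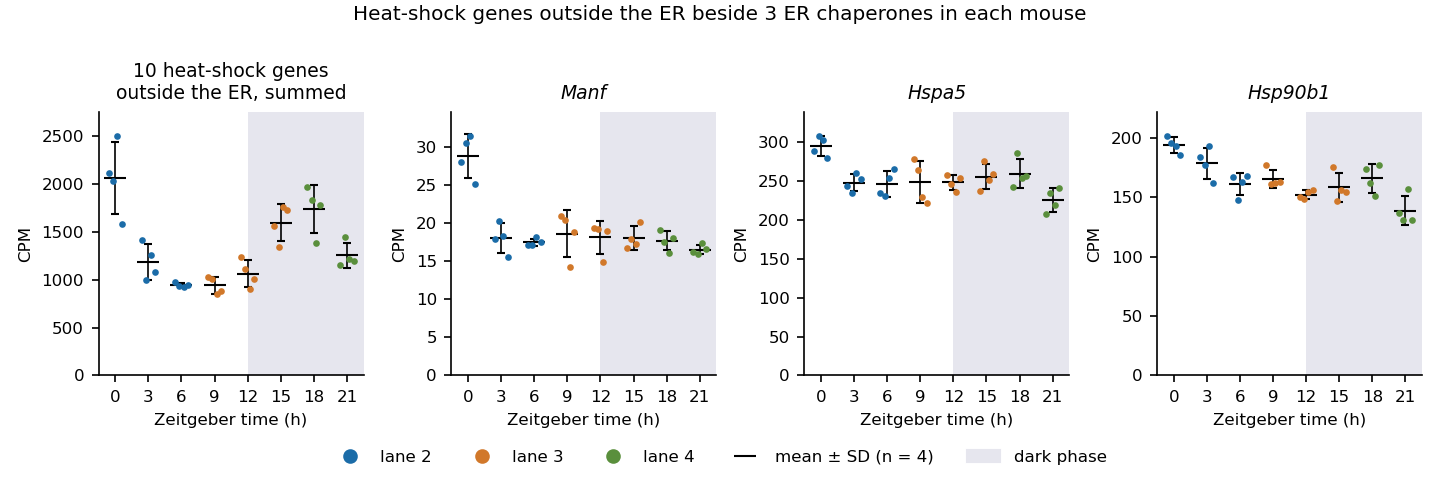
Summed CPM of 10 heat-shock genes of the cytosol and, with Hspd1 and Hspe1, the mitochondria, and the level of Manf, Hspa5 and Hsp90b1 in every mouse by Zeitgeber time (points, coloured by lane; bars, mean ± SD of 4 mice; grey, dark phase; y axes start at 0). The heat-shock sum is high at ZT0 and from ZT15 to ZT18, the 3 ER chaperones at ZT0.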

How the data were processed

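RNA of iBAT from 32 mice was sequenced by the authors as stranded paired-end libraries, mapped to mm10 with GSNAP and counted per Ensembl gene with HTSeq 0.6.1. The deposited values were raw read counts, not normalised, and the strand setting of the counting was not given in the sources used here. Libraries held 16300770 to 18254659 counts, and no pair of mice of a time point agreed within sampling noise.

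Genes were filtered with filterByExpr and scaled by TMM in edgeR 4.0.16 (R 4.3.3, limma 3.58.1), which left 15505 genes. Quasi-likelihood tests with Benjamini-Hochberg adjustment over all of them (threshold 0.05) covered a 24 h cosine, any difference between time points, an added 12 h component and 9 contrasts in 1 fit over all libraries. JTK and the permutation test of the relation to Hspa5 were run in Python 3.11.15 (scipy 1.17.1). Both used values after TMM scaling, JTK the CPM and the permutation test the log2 CPM. Amplitudes, peaks and ratios came from a cosine fitted by least squares to log2 CPM (prior count 2), as did the SE of contrasts. Amplitudes compared between settings came from edgeR's fit. The steps were tested on simulated data. Alternatives were DESeq2 1.42.0, other scalings, no filter, the lane, the replicate number as a block, and each library left out; those on muscle markers were chosen after seeing the data.

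Members and lists were chosen with earlier results of these data known. Values in every mouse are given for Hspa5, Xbp1, the 6 members with the smallest p of the cosine and the 2 with the smallest p of a step within a lane; of each other list at most 3 genes, those with the smallest p of the cosine, are named. Gene coordinates, exon lengths and overlaps are from a GRCm38 annotation that differs from the release used for counting.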

Additional observations from a re-analysis of the deposited data

Results flagged for a closer look

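In 3 of 80 groups of 4 mice (10 members at 8 time points) 1 mouse lay farther from the others than Dixon's critical value for 4 samples allows, where chance gives about 1 in 20 groups. Os9 at ZT0 had 57.1 CPM in its highest mouse, replicate 3, and 53.7 to 54.3 CPM in the others. Ssr1 at ZT6 had 64.4 CPM in its lowest mouse, replicate 3, and 68 to 68.3 CPM in the others. Manf at ZT12 had 14.9 CPM in its lowest mouse, replicate 3, and 19 to 19.4 CPM in the others.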

How the results depend on the processing

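Of 2467 repeats of single-member results under other settings, 0 reversed in direction, 174 lost and 80 gained a call. Counts of members that moved by over 1.5 times are given here, and unless a value or the setting itself shows it, the cause was not tested. With the lane as a factor 2 members had a 24 h component. Adjusted P in place of P left 7 members by JTK, and DESeq2 gave 1 with a 12 h component, 5 at ZT3 against ZT0 and 2 at ZT21 against ZT18. Without the 15 libraries that hold muscle transcripts (fewer samples) 4 members had a 24 h component, 3 differed between time points, 1 at ZT12 against ZT0, and 0 at ZT15 against ZT3, ZT18 against ZT6, ZT21 against ZT9, ZT6 against ZT3 and ZT21 against ZT18. With the muscle markers as a covariate 2 differed at ZT18 against ZT6, 5 at ZT3 against ZT0, and 0 at ZT6 against ZT3 and ZT21 against ZT18. Library size in place of TMM gave 1 at ZT15 against ZT3 and 0 at ZT18 against ZT6, ZT6 against ZT3, ZT21 against ZT18 and in the relation to Hspa5. No filter (more genes tested) gave 1 at ZT15 against ZT3, 0 at ZT18 against ZT6, 2 at ZT21 against ZT9, 1 at ZT3 against ZT0, 0 at ZT6 against ZT3 and 0 at ZT21 against ZT18. The libraries of the same lane alone gave 0 at ZT6 against ZT3 and ZT21 against ZT18. The relation to Hspa5 was called for 1 member without the 2 farthest mice. Within each lane it was called for 0 members and 0 of all genes, but the smallest p there (7.23e-05, 7.23e-05 and 0.00174) can hardly pass adjustment over 15504 genes, so these counts say nothing about stability.

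Without 1 library the counts ran from 11 to 16 for the cosine, 13 to 20 for the time points, 8 to 14 for JTK, 8 to 13 at ZT12 against ZT0, 1 to 3 at ZT15 against ZT3, 0 to 2 at ZT18 against ZT6, 3 to 6 at ZT21 against ZT9, 1 to 8 at ZT3 against ZT0, 0 to 1 at ZT6 against ZT3, 0 to 2 at ZT21 against ZT18 and 1 to 4 for the relation to Hspa5. They stayed at 0 for the 12 h component, ZT12 against ZT9 and ZT15 against ZT12. At ZT15 against ZT3 the count was 1 without replicate 3 of ZT3 or replicates 2 or 4 of ZT15. At ZT18 against ZT6 it was 0 without replicates 2 or 3 of ZT6 or 1 or 2 of ZT18, and 2 without replicates 1 or 4 of ZT6, 1 of ZT9, 1 or 3 of ZT12 or 4 of ZT18. At ZT6 against ZT3 it was 0 without replicates 1, 2 or 3 of ZT3 or 1, 3 or 4 of ZT6.

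The replicate number as a block gave 12 members for the cosine (Sec61a1 lost) and 15 for the time points (Ern1 and Sec61g lost), and changed no other count. Mice with the same number did not deviate together: the correlation of their deviations ran from -0.726 to 0.767 over 112 pairs (median -0.119), and 8 of 32 libraries matched their own number best. The numbers therefore give no pairing.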
